A study of Mus musculus with 30 samples.

Results

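The α- and β-tubulin genes and Ttc5, the gene of the tubulin autoregulation factor, were followed through cycloheximide treatment in mouse NIH/3T3 fibroblasts and CGR8 embryonic stem cells. The members were the rows of the deposited count matrix whose Ensembl gene identifier, with its version removed, maps to Tuba1a, Tuba1b, Tuba1c, Tubb2a, Tubb2b, Tubb3, Tubb4b, Tubb5, Tubb6 or Ttc5. All 10 were found among 57186 gene rows. The rule used names alone and no measured value, though the members and lists were chosen with earlier results of these data known.

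The study sequenced stranded mRNA libraries from both lines at 0, 1, 2, 5 and 48 h of cycloheximide, an inhibitor of translation elongation, at 0.1 µg/mL. Each line and time has 3 libraries, lettered A, B and C, which makes 30 libraries in 10 groups. All groups, the 0 h ones included, carry the genotype given as ROSA26 SLT knock-in. NIH/3T3 cells grew in DMEM with fetal bovine serum and CGR8 cells in N2B27 medium with 2i/LIF, so line and medium cannot be told apart. The labels do not say whether a line is 1 clone, nor whether replicates were separate cultures. The p-values below therefore measure only the spread between these libraries, which may be technical.

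Tubulin is made as αβ heterodimers that build microtubules, and cells hold its level steady by autoregulation. When soluble tubulin is in excess, the protein TTC5 recognises the first residues of a nascent tubulin chain as it leaves the ribosome, and with the adaptor SCAPER brings in the CCR4-NOT deadenylase complex. SCAPER contacts that complex through its CNOT11 subunit. The tubulin mRNA is then degraded, which needs ongoing translation of that mRNA. The recognised start is methionine, arginine and glutamate followed by cysteine in α-tubulins or by isoleucine in β-tubulins.

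The first 30 coding bases, taken from the GENCODE M21 annotation of GRCm38, are shown because they encode that start. Capitals mark the first 4 codons. Each line gives 1 gene, 5′ to 3′.
Tuba1a: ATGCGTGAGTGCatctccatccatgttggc
Tuba1b: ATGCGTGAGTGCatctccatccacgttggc
Tuba1c: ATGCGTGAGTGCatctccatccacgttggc
Tubb2a: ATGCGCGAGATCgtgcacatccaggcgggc
Tubb2b: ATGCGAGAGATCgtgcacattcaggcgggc
Tubb3: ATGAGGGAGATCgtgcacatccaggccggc
Tubb4b: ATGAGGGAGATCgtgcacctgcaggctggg
Tubb5: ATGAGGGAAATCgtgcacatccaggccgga
Ttc5: ATGATGGCTGATgaagaggaagaagcgaag
Tubg1: ATGCCGAGAGAAatcatcaccctacagttg

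The 3 α-tubulins share all 4 codons. Tubb2a, Tubb2b, Tubb3, Tubb4b and Tubb5 encode the same 4 residues. Tubb3 and Tubb4b share all 4 codons, and Tubb2a, Tubb2b and Tubb5 each differ from them in a codon for arginine or glutamate. Among 21660 coding genes of that annotation, 9 encode the α-type start. These are 8 α-tubulin genes and Gm49450, a locus that overlaps Tuba1a and Tuba1b. The β-type start is encoded by 8 genes, all of them β-tubulins, Tubb6 among them. Ttc5 itself and Tubg1, the γ-tubulin shown for contrast, encode neither.

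Near-identical copies limit what gene counts can say about the α-tubulins. Of all 50-base windows of the coding sequence, 93.9% in Tuba1a, 95.9% in Tuba1b and 90.8% in Tuba1c also occur in another gene. The share was 60.2% for Tubb2a, 65.2% for Tubb2b and 61.3% for Tubb4b, 0.08% for Tubb5, and 0% for Tubb3 and Tubb6. Besides the members, 17 other genes share windows with the α-tubulins, and Gm14150, a processed pseudogene, holds 50.5% of their summed CPM (counts scaled to a common library size). Their sum was 188 to 213 CPM in the NIH/3T3 libraries at 0 h and 138.5 to 139.0 CPM at 5 h, so single α-tubulin values are uncertain. Exons of Tuba1b and Tubb4b also overlap genes on the opposite strand, Gm41396 and Fam166a. How the counting split shared reads, and whether it used strand, is not given in the sources used here.

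The libraries held 18216993 to 30503109 counts. The lines matched their labels: a list of 6 stem cell markers summed to 4239 to 7195 CPM in CGR8 and at most 0.545 CPM in NIH/3T3, and 6 fibroblast markers summed to 4060 to 10239 CPM in NIH/3T3 and at most 5.07 CPM in CGR8. Postn stayed below 1 CPM in NIH/3T3. Thy1 ran against its list, at most 0.0914 CPM in NIH/3T3 and 1.48 to 4.51 CPM in CGR8, where it made up most of the fibroblast sum. Within NIH/3T3 the fibroblast sum was 6573 to 7299 CPM at 0 h, 4251 to 4857 CPM at 5 h and 10067 to 10239 CPM at 48 h, while the stem cell sum in CGR8 was 4239 to 4521 CPM at 0 h and 5948 to 7195 CPM at 5 h. The part of these lists in the tubulin values was not tested. In bulk RNA, fewer cells of a type and less RNA per cell cannot be told apart.

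Of the 30 libraries, 4 stood farthest from their own groups, by the SD over 7499 genes of the log2 deviation from the group median. They were NIH/3T3 1 h C (0.402), CGR8 2 h A (0.305), NIH/3T3 2 h A (0.288) and CGR8 0 h B (0.284). The next were CGR8 5 h A (0.273) and CGR8 5 h C (0.247). In the 4 libraries the mean log2 deviation of 5 tubulin genes was 0.39, 0.48, 0.38 and 0.50, the highest values of all 30 libraries. As a percent of the scaled library size behind the CPM, ribosomal protein genes took 5.91 to 6.63% in NIH/3T3 at 0 h and 6.50 to 8.50% in CGR8. At 5 h they took 7.51 to 8.19% in NIH/3T3 and 10.1 to 15.7% in CGR8. Results that rest on the 4 libraries are given with and without them; leaving them out was an alternative chosen after the data were seen.

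At 0 h the lines shared their leading tubulins and differed in the β-tubulins below them. Per kilobase of exon, Tubb5, the broadly expressed β-tubulin, led in both lines, at 649 ± 40.5 CPM per kb in NIH/3T3 and 763 ± 119 in CGR8 (SD, n = 3). Tubb4b came next, at 453 ± 27.4 CPM per kb in NIH/3T3 and 305 ± 50.6 in CGR8, followed by Tuba1b at 288 ± 24.5 and 243 ± 69.7. In NIH/3T3 the order went on with Tubb6 (248 ± 12.9 CPM per kb), Tuba1c (187 ± 5.89), Tuba1a (108 ± 2.98), Tubb2a (94.4 ± 6.09), Ttc5 (4.17 ± 0.164), Tubb2b (0.258 ± 0.0675) and Tubb3. No neighbours in that order overlapped. In CGR8 it went on with Tubb2b (163 ± 19.3 CPM per kb), Tuba1c (121 ± 25.8), Tuba1a (107 ± 33.2), Tubb3 (63.8 ± 12.4), Tubb6 (12.9 ± 2.53), Ttc5 (11.4 ± 1.66) and Tubb2a (8.35 ± 0.845). There Tubb4b and Tuba1b, Tubb2b and Tuba1c, Tuba1c and Tuba1a, and Tubb6 and Ttc5 overlapped.

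In the test of CGR8 against NIH/3T3 at 0 h, 7 of 10 members passed an adjusted p of 0.05 (edgeR's quasi-likelihood test, Benjamini-Hochberg adjustment over all genes), where 79.1% of all 17549 genes tested did. The members' count is near that background. The sizes differed widely. Tubb2b, a neuronally enriched isotype, was at 344, 426 and 355 CPM in the CGR8 libraries against 0.501, 0.771 and 0.505 in NIH/3T3, a log2 difference of 9.30 ± 0.25 (SE, edgeR adjusted p = 4.96e-23). Its NIH/3T3 values rest on 5 to 26 counts per library over all times. Tubb3, the neuronal β-tubulin class, was at 112, 145 and 101 CPM in CGR8 and had at most 1 count in any NIH/3T3 library, with a count in 2 of 15. Against a floor of 3 counts per library it was at least 671-fold higher in CGR8.

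The reverse held for 2 β-tubulins. Tubb6, an isotype found in many non-neuronal tissues, was at 588, 585 and 641 CPM in NIH/3T3 and 28.2, 38.7 and 27.7 in CGR8, a log2 difference of -4.26 ± 0.16 (edgeR adjusted p = 6.25e-20). Tubb2a, which lies next to Tubb2b with no coding gene between them, was at 142, 153 and 161 CPM in NIH/3T3 and 12.6, 15 and 12.7 in CGR8 (-3.50 ± 0.14, edgeR adjusted p = 5.97e-19). The neighbours Tubb2a and Tubb2b thus stood in opposite order in the lines. Tuba1c (-0.63 ± 0.15) and Tubb4b (-0.57 ± 0.16) were also lower in CGR8. Ttc5 was higher in CGR8, at 49.5, 38.6 and 51.0 CPM against 16.2, 17.3 and 17.4 (1.45 ± 0.13, edgeR adjusted p = 4e-11). Tuba1a (-0.02), Tuba1b (-0.25) and Tubb5 (0.23) did not pass in that fit. Without the 4 libraries Tuba1a (-0.28, edgeR adjusted p = 0.0412) and Tuba1b (-0.48, edgeR adjusted p = 0.00109) did, in a fit where 80.9% of all genes passed. With all libraries the median over all genes was 0.15.

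The neural marker list, fixed because Tubb3 and Tubb2b are used as neural genes, was low in both lines. Over its 9 genes it summed to 30.5 to 60.7 CPM in CGR8, where Gap43 and Nes led and Dcx reached at most 0.109 CPM. It was 30.5 to 37.2 CPM at 0 h, 36.8 to 43.2 CPM at 5 h and 50.5 to 60.7 CPM at 48 h. In NIH/3T3 the list summed to 29.0 to 31.6 CPM at 0 h and 15.6 to 31.6 CPM over all times. Nes made up nearly all of that sum, at 15.6 to 31.5 CPM, and Elavl3, the next gene, reached at most 0.471 CPM. The part of this list in the Tubb3 level was not tested.

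**Figure D1:**
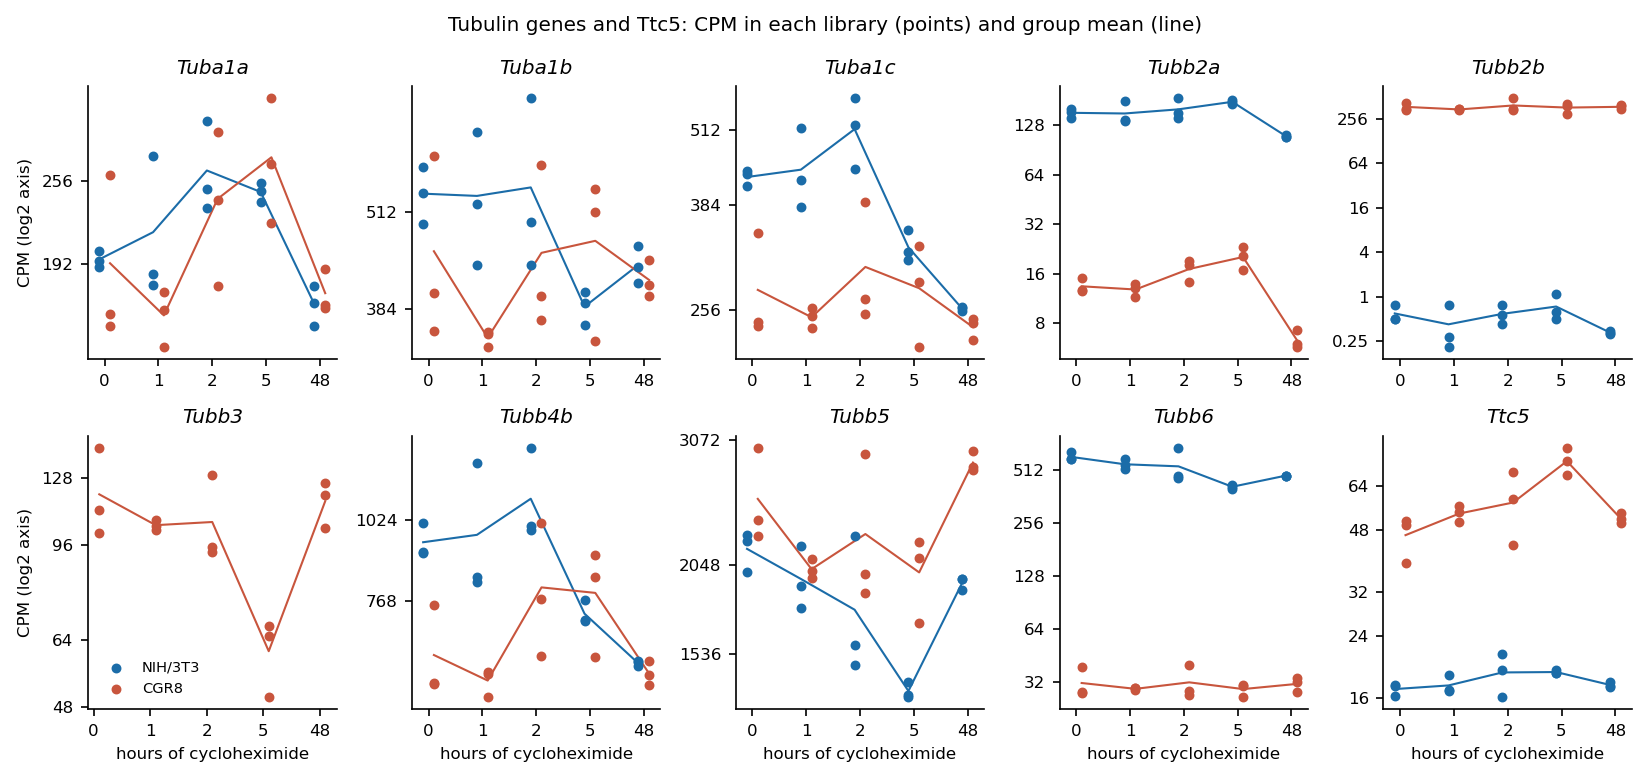
CPM of each member on a log2 axis (its range differs between panels) against hours of cycloheximide, evenly spaced, with 1 point per library and a line through the group means, NIH/3T3 in blue and CGR8 in red. Tubb3 in NIH/3T3, with at most 1 count per library, is not drawn; Tubb5 has its lowest NIH/3T3 values at 5 h, and Tubb3 its lowest CGR8 values at 5 h.

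At 1 h no member passed in either line, where 0.732% of 13941 genes tested in NIH/3T3 and 0.27% of 15933 in CGR8 did. At an unadjusted p under 0.05 no member passed in either line. In CGR8 the Tuba1b and Tubb5 libraries lay below all those at 0 h, where 25% of all genes did not overlap. Tubb3 was below the filter on low counts in NIH/3T3, so 9 members were tested there. Without the deviating libraries, Tubb4b (-0.18), Tubb5 (-0.22) and Tubb6 (-0.19) passed in NIH/3T3 at 1 h with edgeR adjusted p of 0.0223, 0.0113 and 0.0144, where 14.7% of all genes passed. The Tubb4b value was 0.07 with all libraries, so its sign turned.

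At 2 h in NIH/3T3, Tuba1a and Tuba1c rose, 2 of 9 members, where 35% of all genes passed. Tuba1a was at 194, 190 and 201 CPM at 0 h and 316, 233 and 249 CPM at 2 h, without overlap, as in 45.4% of all genes (log2 0.48 ± 0.15, edgeR adjusted p = 0.0195). Its call was lost without 0 h A, 0 h B or 2 h A, with edgeR adjusted p of up to 0.0851. The Tuba1c call (0.30 ± 0.11, edgeR adjusted p = 0.0490) was lost in 5 of 6 fits that left out 1 library, all but the one without 2 h B. Without the 4 deviating libraries, Tuba1a (0.35), Tuba1c (0.21) and Ttc5 (0.30) rose while Tubb5 (-0.45) and Tubb6 (-0.34) fell at 2 h, 5 of 9 members where 54% of all genes passed. In CGR8 at 2 h no member passed, against 19.9% of all genes; Tubb2a had the lowest edgeR adjusted p, 0.115, and was the only member with an unadjusted p under 0.05.

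At 5 h in NIH/3T3 the members split: Tuba1a rose, and Tuba1b, Tuba1c, Tubb5 and Tubb6 fell. These are 5 of 9 members, where 51% of all genes passed, so the count itself is near the background. Tubb5 was at 2217, 2006 and 2256 CPM at 0 h and 1405, 1346 and 1339 CPM at 5 h, the lowest level of its time course. The log2 change was -0.63 ± 0.13 (edgeR adjusted p = 8.54e-04), and it passed in all 6 fits without 1 library. Tubb6 went from 588, 585 and 641 CPM to 420, 398 and 409 CPM (-0.53 ± 0.12, edgeR adjusted p = 0.00186), without overlap and also in all 6 such fits.

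The α-tubulins parted at the same time. Tuba1b, the most abundant α-tubulin per kilobase here, was at 543, 494 and 586 CPM at 0 h and 366, 404 and 391 CPM at 5 h (-0.45 ± 0.16, edgeR adjusted p = 0.0276). Tuba1c was at 432, 412 and 438 CPM and then 348, 310 and 320 CPM (-0.36 ± 0.11, edgeR adjusted p = 0.0148). Tuba1a, a major α-tubulin of the nervous system, went the other way, from 194, 190 and 201 CPM to 254, 247 and 238 CPM (0.37 ± 0.15, edgeR adjusted p = 0.0437). In none of the 3 genes did the 0 h and 5 h libraries overlap, which held for 66.8% of all genes in that comparison. The Tuba1a call was lost in each of the 6 fits without 1 library (edgeR adjusted p 0.0727 to 0.101), the Tuba1b call in all but the one without 0 h B, and the Tuba1c call without 0 h C or 5 h B. None of these 6 libraries is among the 4 deviating ones, which enter through the shared spread. Without those 4, the 3 changes were 0.38, -0.44 and -0.35 with edgeR adjusted p of at most 3.39e-05.

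The remaining members did not pass at 5 h in NIH/3T3. Tubb4b was at 912, 915 and 1013 CPM at 0 h and 771, 719 and 718 CPM at 5 h (-0.33 ± 0.15, edgeR adjusted p = 0.0683). Tubb2a was at 142, 153 and 161 CPM and then 182, 178 and 172 CPM (0.26 ± 0.12, edgeR adjusted p = 0.0797). Neither gene's groups overlapped, as was the case for most genes at this time. Ttc5 was at 16.2, 17.3 and 17.4 CPM and then 18.8, 18.9 and 19.2 CPM (0.19 ± 0.10, edgeR adjusted p = 0.108), also without overlap. All 3 passed without the 4 deviating libraries, with values of -0.32, 0.26 and 0.20, in a fit where 64.2% of all genes passed. They also passed with limma-voom quality weights (67.5% of all genes) and with only the groups compared (65.8%). With all libraries and library size alone as the scaling, Tubb4b (edgeR adjusted p = 0.0375) and Tubb2a (edgeR adjusted p = 0.0438) passed, where 51% of all genes did. Tubb4b also passed with no filter (edgeR adjusted p = 0.0121), and Tubb2a with a filter at 5 CPM (edgeR adjusted p = 0.0439). The 9 tubulins together held 4756 to 5296 CPM at 0 h and 3587 to 3747 CPM at 5 h.

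At 5 h in CGR8, Tubb2a and Ttc5 rose and Tubb3 and Tubb5 fell, 4 of 10 members where 52.1% of all genes passed. Tubb3 was at 112, 145 and 101 CPM at 0 h and 67.7, 64.9 and 50.2 CPM at 5 h. This log2 change of -1.02 ± 0.15 (edgeR adjusted p = 5.72e-05) held in all 6 fits without 1 library, from -1.13 to -0.85. Tubb2a rose from 12.6, 15 and 12.7 CPM to 20.6, 23.4 and 16.8 CPM (0.53 ± 0.14, edgeR adjusted p = 0.00530). For neither gene did the libraries overlap, and 54.6% of all genes did not.

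Ttc5, which encodes the factor that reads the nascent tubulin start, was at 49.5, 38.6 and 51.0 CPM at 0 h in CGR8 and 81.8, 68.6 and 75.2 CPM at 5 h. All 5 h libraries were above all 0 h ones (0.64 ± 0.15, edgeR adjusted p = 0.00184). The value was 0.54 without the 4 deviating libraries (edgeR adjusted p = 7.18e-04). Tubb5 went from 2372, 2991 and 2253 CPM to 2094, 2210 and 1700 CPM (-0.40 ± 0.16, edgeR adjusted p = 0.0412), without overlap. Its call was lost without 0 h A, 0 h B, 5 h A or 5 h C, and without the 4 deviating libraries the value was -0.26 (edgeR adjusted p = 0.0721). It was also lost with DESeq2's size factors in edgeR (edgeR adjusted p = 0.0666), in DESeq2 (DESeq2 adjusted p = 0.0533), with a filter at 5 CPM (edgeR adjusted p = 0.0543) and with only the groups compared (edgeR adjusted p = 0.0616).

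The other members in CGR8 at 5 h overlapped their 0 h libraries. Tuba1a was at 154, 261 and 161 CPM and then 272, 342 and 221 CPM (0.48 ± 0.20, edgeR adjusted p = 0.0598), where the highest 0 h value is the deviating library B. With all libraries, Tuba1a passed under DESeq2's size factors in edgeR (edgeR adjusted p = 0.0468) and in DESeq2 (DESeq2 adjusted p = 0.0348). It also passed with no filter (edgeR adjusted p = 0.0046) and with a filter at 5 CPM (edgeR adjusted p = 0.0329). With limma-voom quality weights it passed too (limma adjusted p = 2.63e-05). Without the 4 libraries it passed at 0.77 (edgeR adjusted p = 8.33e-04), a value over 1.5 times larger, as did Tubb4b at 0.42 (edgeR adjusted p = 0.0153). In that fit 54.5% of all genes passed. Tuba1b (-0.01), Tuba1c (-0.05), Tubb2b (-0.09) and Tubb6 (-0.17) did not pass with or without the 4 libraries.

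**Figure D2:**
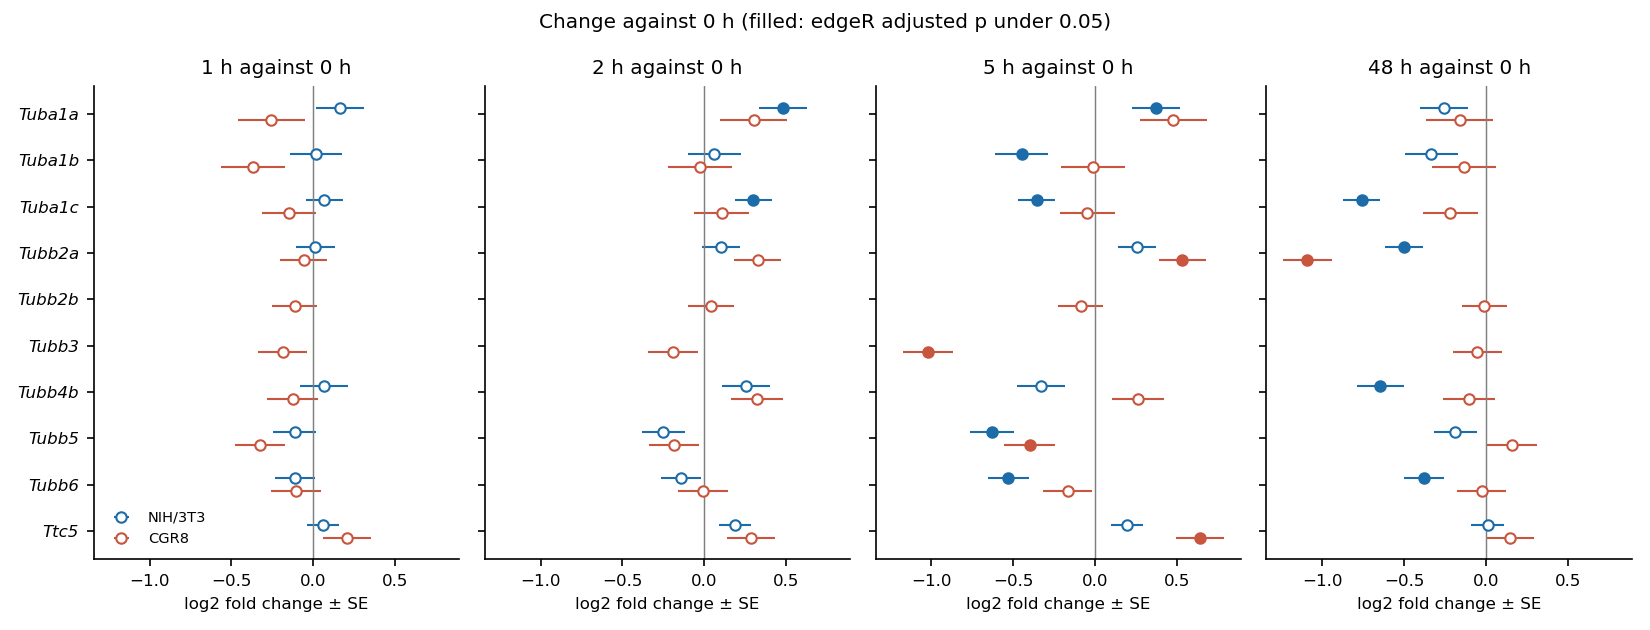
Log2 fold change ± SE of each member at 1, 2, 5 and 48 h against 0 h, NIH/3T3 in blue and CGR8 in red, filled where the edgeR adjusted p is under 0.05. Tubb2b and Tubb3 in NIH/3T3 are not drawn; at 5 h Tubb5 and Tuba1a lie on opposite sides of 0 in both lines.

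At 48 h in NIH/3T3, Tuba1c, Tubb2a, Tubb4b and Tubb6 were lower than at 0 h, 4 of 9 members where 52.3% of all genes passed. Tuba1c was at 256, 259 and 258 CPM, its lowest level (-0.76 ± 0.11, edgeR adjusted p = 4.32e-05). Tubb4b was at 621, 611 and 620 CPM (-0.64 ± 0.15, edgeR adjusted p = 0.00149). Tubb2a was at 109, 112 and 108 CPM (-0.50 ± 0.12, edgeR adjusted p = 0.00203). Tubb6 was at 474, 473 and 474 CPM (-0.38 ± 0.12, edgeR adjusted p = 0.0153); this call was lost without 0 h C (edgeR adjusted p = 0.0618).

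None of these 4 genes overlapped its 0 h libraries, nor did Tuba1a, Tuba1b, Tubb5 or Tubb2b, all of them lower at 48 h; 69.9% of all genes did not overlap. Tuba1a (-0.26), Tuba1b (-0.33) and Tubb5 (-0.19) did not pass at 48 h in NIH/3T3, though without the 4 deviating libraries they did (edgeR adjusted p of 1.63e-04, 3.76e-04 and 0.00181), as did Tubb2b (-0.87, edgeR adjusted p = 0.0457), in a fit where 66.8% of all genes passed. Ttc5 was back at 17.8, 17.2 and 17.3 CPM (0.01 ± 0.10, edgeR adjusted p = 0.942).

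At 48 h in CGR8, Tubb2a was the only member that passed, 1 of 10 where 27.8% of all genes did. It was at 7.26, 6.02 and 5.77 CPM, below every earlier library of that line (-1.09 ± 0.15, edgeR adjusted p = 5.97e-05). Tubb3 was at 103, 125 and 119 CPM, again within its 0 h range. Tubb5 was at 2786, 2966 and 2814 CPM (0.16 ± 0.15, edgeR adjusted p = 0.483), and Ttc5 at 53.5, 50.1 and 51.4 CPM (0.14 ± 0.15, edgeR adjusted p = 0.503).

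The step from 5 h to 48 h has none of the 4 deviating libraries in its groups, though they enter through the shared spread. The next in deviation, CGR8 5 h A (0.273) and 5 h C (0.247), belong to this step. In CGR8 5 h C the mean log2 deviation of the 5 tubulin genes was -0.38. In NIH/3T3, 5 of 9 members passed, where 65.6% of all genes did, and in CGR8 5 of 10, where 57.5% did. Tubb5 rose in both lines, by 0.44 ± 0.13 in NIH/3T3 (edgeR adjusted p = 0.00729) and 0.56 ± 0.16 in CGR8 (edgeR adjusted p = 0.00599). Tubb2a fell in both, by 0.76 ± 0.12 in NIH/3T3 (edgeR adjusted p = 3.3e-05) and by 1.62 ± 0.15 in CGR8 (edgeR adjusted p = 4.47e-07). Tuba1a also fell in both, by 0.63 ± 0.15 (edgeR adjusted p = 0.00136) and by 0.64 ± 0.20 (edgeR adjusted p = 0.0138). The CGR8 Tuba1a call was lost without 5 h B (edgeR adjusted p = 0.0812).

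The other calls of that step were line by line. Tuba1c fell by 0.40 ± 0.11 in NIH/3T3. Tubb2b fell by 1.23 ± 0.44 there, on 5 to 26 counts per library, and lost its call without 5 h A or 48 h A. In CGR8, Tubb3 rose by 0.97 ± 0.15 (edgeR adjusted p = 6.34e-05), and Ttc5 fell by 0.50 ± 0.15 (edgeR adjusted p = 0.00864).

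The difference between the lines in the change over time was tested as an interaction. No member passed at 1 h, where 0.16% of 17549 genes did, and none at 2 h, where 2.02% did. No member had an unadjusted p under 0.05 at either time. At 5 h, Tubb4b (0.68 ± 0.22, edgeR adjusted p = 0.0430) and Ttc5 (0.54 ± 0.18, edgeR adjusted p = 0.0461) passed, 2 of 10 where 13.3% did; positive values mean a change more upward in CGR8. The median over all genes was 0.13. With library size alone as the scaling, where that median was -0.06, the values were 0.48 and 0.34 and neither passed. At 48 h only Tubb2a passed (-0.61 ± 0.19, edgeR adjusted p = 0.0218), where 21.9% of all genes did. Without the 4 deviating libraries, 8 members passed at 5 h, where 25.8% of all genes did, and 6 at 48 h, where 29.5% did. All 8 values at 5 h were positive, Tuba1b (0.77) and Tubb4b (0.82) being the largest, and the median over all genes in that fit was 0.13. With all libraries these 8 members also had positive values, from 0.19 for Tuba1a to 0.68 for Tubb4b, while Tubb2b was at -0.36. The sizes and the number of calls depend on the choice of libraries. Leaving out 1 library at a time gave Tuba1a values from -0.14 to 0.47. CGR8 0 h B, among the 4 deviating libraries, had a mean tubulin deviation of 0.50, so its removal lowers the CGR8 level at 0 h. Leaving out that library alone moved Tuba1b from 0.53 to 0.77.

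Ratios between genes of 1 library do not depend on its scaling, and were looked at after the values were seen, so they are given without a test. The ratio of Tubb5 to Tubb4b, in CPM per kb, was 1.53, 1.37 and 1.4 in NIH/3T3 at 0 h, 1.07, 0.941 and 0.991 at 2 h, 1.14, 1.18 and 1.17 at 5 h, and 1.98, 2.01 and 1.91 at 48 h. In CGR8 it was 2.59, 2.48 and 2.46 at 0 h, 2.25, 2.20 and 2.11 at 1 h, 1.82, 1.98 and 1.51 at 2 h, 1.57, 1.53 and 1.69 at 5 h, and 2.95, 2.99 and 3.09 at 48 h. Both lines were below 0 h at 2 and 5 h and above it at 48 h, with no library overlapping, the deviating ones included. The NIH/3T3 ratios at 1 h overlapped those at 0 h.

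The ratio of Tuba1a to Tuba1b moved the other way. In NIH/3T3 it was 0.372, 0.400 and 0.356 at 0 h, 0.457, 0.553 and 0.520 at 2 h, and 0.723, 0.637 and 0.633 at 5 h. In CGR8 it was 0.398, 0.449 and 0.465 at 0 h, 0.537, 0.497 and 0.624 at 2 h, and 0.515, 0.694 and 0.659 at 5 h. All libraries at 2 and 5 h lay above those at 0 h, and at 48 h both lines overlapped 0 h again. Another member also holds 69.9% of the coding windows of Tuba1a and 84.0% of those of Tuba1b, and the part of read sharing in this ratio was not tested.

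Summed over the members alone, the 6 β-tubulins stood at 2.48 ± 0.0309 times the 3 α-tubulins per length in NIH/3T3 at 0 h. The ratio was 2.14 ± 0.0568 at 5 h and 2.60 ± 0.0857 at 48 h. In CGR8 the ratio was 2.85 ± 0.296, 2.29 ± 0.134 and 3.27 ± 0.0587 (SD, n = 3). The 5 h values lay below and the 48 h values above all 0 h values in both lines. These sums and the shares below leave out Tuba4a, an α-tubulin outside the member list. It was at 170 ± 9.88 CPM in NIH/3T3 and 336 ± 67.2 CPM in CGR8 at 0 h.

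**Figure D3:**
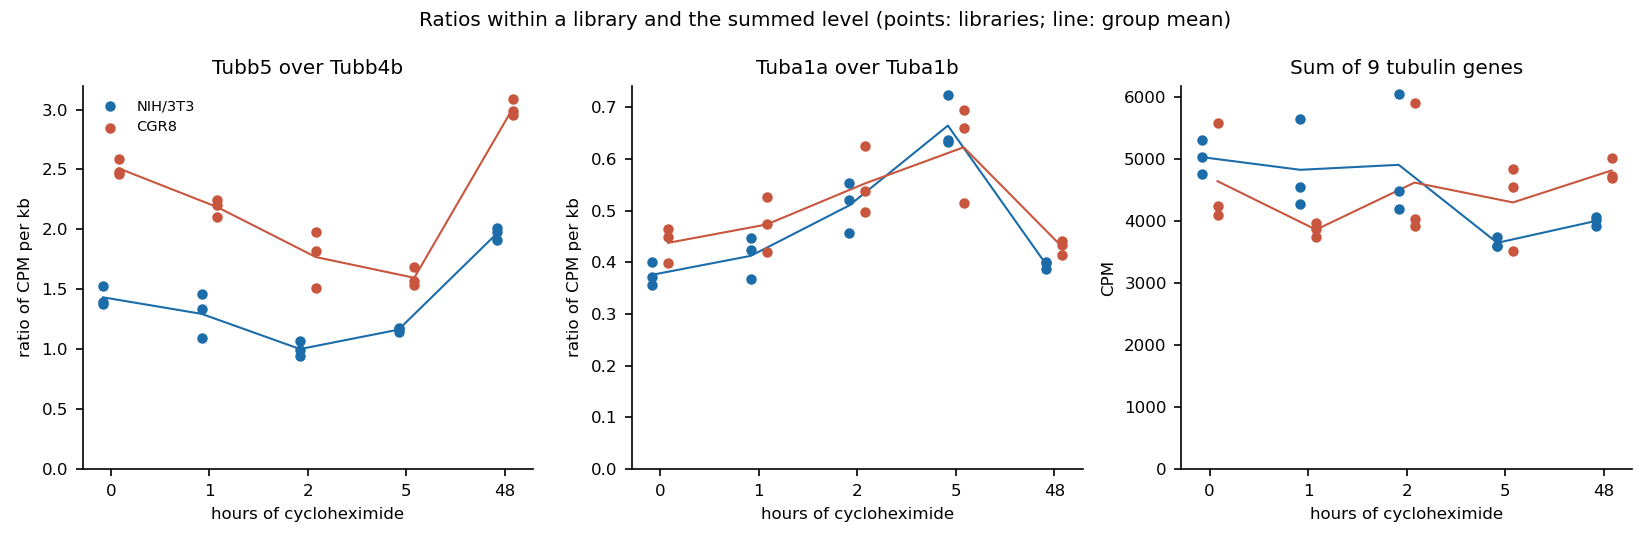
Ratio of Tubb5 to Tubb4b and of Tuba1a to Tuba1b in CPM per kb, and the sum of the 9 tubulins in CPM, against hours of cycloheximide (evenly spaced), with points for libraries and lines for group means. The group mean of Tubb5 over Tubb4b is lowest at 2 h in NIH/3T3 and 5 h in CGR8 and highest at 48 h, and that of Tuba1a over Tuba1b is highest at 5 h.

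As shares of the members of their family per length, Tuba1a rose from 18.1 to 19.2% of the 3 α-tubulin members in NIH/3T3 at 0 h to 27.5 to 28.9% at 5 h. In CGR8 it rose from 21.1 to 23.4% to 26.5 to 31.3%. Tubb4b went from 22.6 to 23.4% of the 6 β-tubulins in CGR8 at 0 h to 30.5 to 32.3% at 5 h and 20.3 to 20.7% at 48 h. Tubb2a in NIH/3T3 went from 6.15 to 6.89% at 0 h to 10.5 to 10.8% at 5 h. Tubb6 held 15.1 to 17.4% in NIH/3T3 and 0.856 to 1.12% in CGR8 over all times, and its NIH/3T3 share was below all 0 h values at 2 and 5 h.

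**Figure D4:**
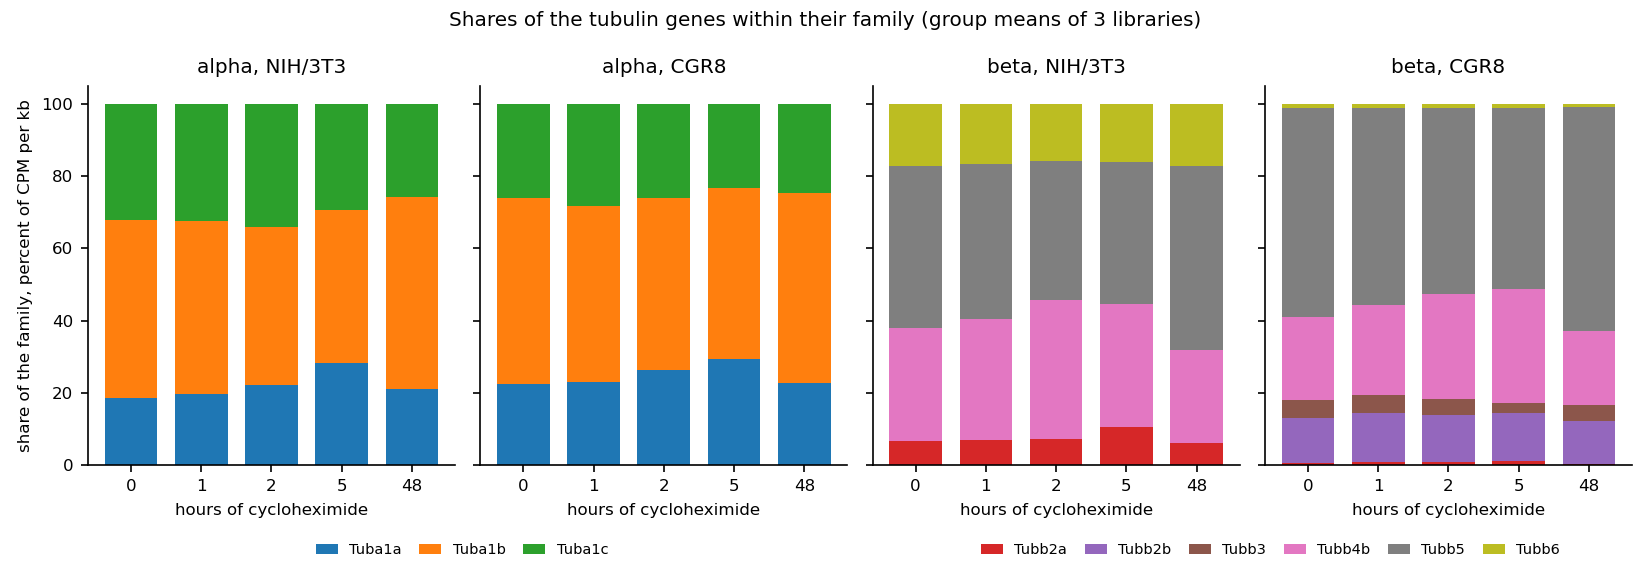
Stacked shares of the 3 α-tubulin members and of the 6 β-tubulin members in the summed CPM per kb of those members, as group means of 3 libraries, per line and hours of cycloheximide. The Tubb5 share is lowest at 2 h in NIH/3T3 and at 5 h in CGR8, and the Tuba1a share is largest at 5 h in both lines.

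Genes whose levels moved most like those of 3 members were sought over the 30 libraries, on log2 CPM centred within each line, among 7005 genes. For Tuba1b they were Eno1 (Pearson r = 0.95), Rnf187 (0.94) and Eif3f (0.94), for Tubb5 Eif3b (0.97), Gnai2 (0.94) and Pcbp2 (0.94), and for Ttc5 Cox6c (0.89), Cenpq (0.88) and Itgb3bp (0.87). Among the members, Tuba1b was nearest to Tubb6 (0.84) and Tubb5 to Tubb6 (0.82). The values of Ttc5 ran from -0.83 with Tubb3, which has almost no counts in NIH/3T3, and -0.65 with Tubb5 up to 0.37 with Tubb2a. The points share libraries, scaling and the composition differences noted for the 4 deviating libraries, so these are descriptions only.

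The lists of genes around tubulin are set beside all genes of the same comparison. At 5 h, 24% of genes were higher and 27.1% lower in NIH/3T3, and 24.9% higher and 27.2% lower in CGR8. At 48 h the shares were 26.7% and 25.6% in NIH/3T3 and 12.2% and 15.6% in CGR8. The median log2 change over all genes was -0.01 at 5 h in both lines, and -0.01 in NIH/3T3 and 0.00 in CGR8 at 48 h.

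Of the autoregulation partners, Cnot11, the CCR4-NOT subunit that docks SCAPER, fell at 5 h in NIH/3T3 (-0.26 ± 0.08, edgeR adjusted p = 0.0134) and was 0.01 ± 0.09 in CGR8. At 48 h it was lower in both, at -0.53 ± 0.08 and -0.29 ± 0.09 (edgeR adjusted p of 5.3e-05 and 0.0185). Scaper, the adaptor between TTC5 and the deadenylase, did not pass at 5 h in either line (-0.29 and -0.06), and at 48 h was higher in NIH/3T3 (0.47 ± 0.13, edgeR adjusted p = 0.00502). Of the 12 genes of SCAPER and CCR4-NOT, none rose and 4 fell at 5 h in NIH/3T3, with a median log2 change of -0.14, and 1 rose and 5 fell in CGR8, with a median of -0.28. Cnot3, a scaffold-associated subunit, fell in both lines (-0.82 ± 0.11 and -0.61 ± 0.11).

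Genes that fold tubulin were called higher more often than lower at 5 h. Of 8 genes of CCT, the chaperonin that folds tubulin and actin, 4 rose and none fell in NIH/3T3 (median 0.24) and 6 rose and none fell in CGR8 (median 0.50). Cct6a went from 733 ± 24.0 to 1120 ± 42.5 CPM in NIH/3T3 (0.65 ± 0.12, edgeR adjusted p = 3.76e-04) and from 1210 ± 130 to 2051 ± 199 CPM in CGR8 (0.71 ± 0.11, edgeR adjusted p = 1.15e-04). Cct3 and Cct4 also rose in both lines. At 48 h all 8 were lower in NIH/3T3 (median -0.56), and none passed in CGR8 (median 0.06).

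Prefoldin, which hands nascent tubulin and actin to CCT, gave 4 of 6 genes higher in NIH/3T3 (median 0.41) and 5 of 6 in CGR8 (median 0.67) at 5 h, and none lower. Pfdn5 rose by 0.68 ± 0.15 and 1.28 ± 0.15, and Pfdn1 by 0.61 ± 0.13 and 1.06 ± 0.14. At 48 h, 4 of 6 were lower in NIH/3T3 and none passed in CGR8. Of 6 tubulin cofactor genes, which assemble the αβ dimer after CCT, 2 rose and 1 fell in NIH/3T3 (median 0.16) and 5 rose and none fell in CGR8 (median 0.57) at 5 h. Tbca, the β-tubulin-binding cofactor, rose in both (0.57 ± 0.13 and 1.09 ± 0.14), while Tbcd fell in NIH/3T3 (-0.46 ± 0.10). CGR8 at 5 h is also the group with the highest ribosomal protein share, and the part of library composition in these lists was not tested.

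The enzymes that modify tubulin were mostly lower at 5 h. Of 14 tested in NIH/3T3, none rose and 8 fell (median -0.45), and of 13 in CGR8 none rose and 10 fell (median -0.48). Sirt2, a deacetylase that acts on tubulin, fell in NIH/3T3 (-0.63 ± 0.11), and Ttl, the tubulin tyrosine ligase, in CGR8 (-0.70 ± 0.10). Of microtubule dynamics genes, 1 rose and 9 fell among 18 in NIH/3T3 (median -0.24), and 3 rose and 13 fell among 20 in CGR8 (median -0.51). The mitotic kinesin Kif18a rose in NIH/3T3 (0.94 ± 0.17), where Map4, a microtubule-associated protein, fell (-0.79 ± 0.11); Map1b fell in CGR8 (-1.28 ± 0.22). Of 15 G2/M genes, none rose and 9 fell in NIH/3T3 (median -0.41), and 2 rose and 6 fell in CGR8 (median -0.05), and the part of this list in the tubulin values was not tested.

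Other tubulins and the actin genes give the wider cytoskeleton. Tuba4a, an α-tubulin outside the member list that encodes the α-type start, fell at 5 h in both lines (-0.62 ± 0.14 and -0.54 ± 0.18, edgeR adjusted p of 0.00197 and 0.0171). Tubg1, which nucleates microtubules and lacks the start, also fell in NIH/3T3 (-0.31 ± 0.09) and was 0.09 ± 0.14 in CGR8. Of actin and intermediate filament genes, 1 rose and 6 fell among 8 in NIH/3T3 (median -0.47), and 1 rose and 4 fell among 10 in CGR8 (median -0.39). Actb, cytoplasmic β-actin, fell from 7467 ± 657 to 3879 ± 110 CPM in NIH/3T3 (-0.91 ± 0.14) and from 3895 ± 407 to 2601 ± 203 CPM in CGR8 (-0.64 ± 0.13). Actb encodes neither tubulin start, and the part of autoregulation in these changes was not tested.

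**Figure D5:**
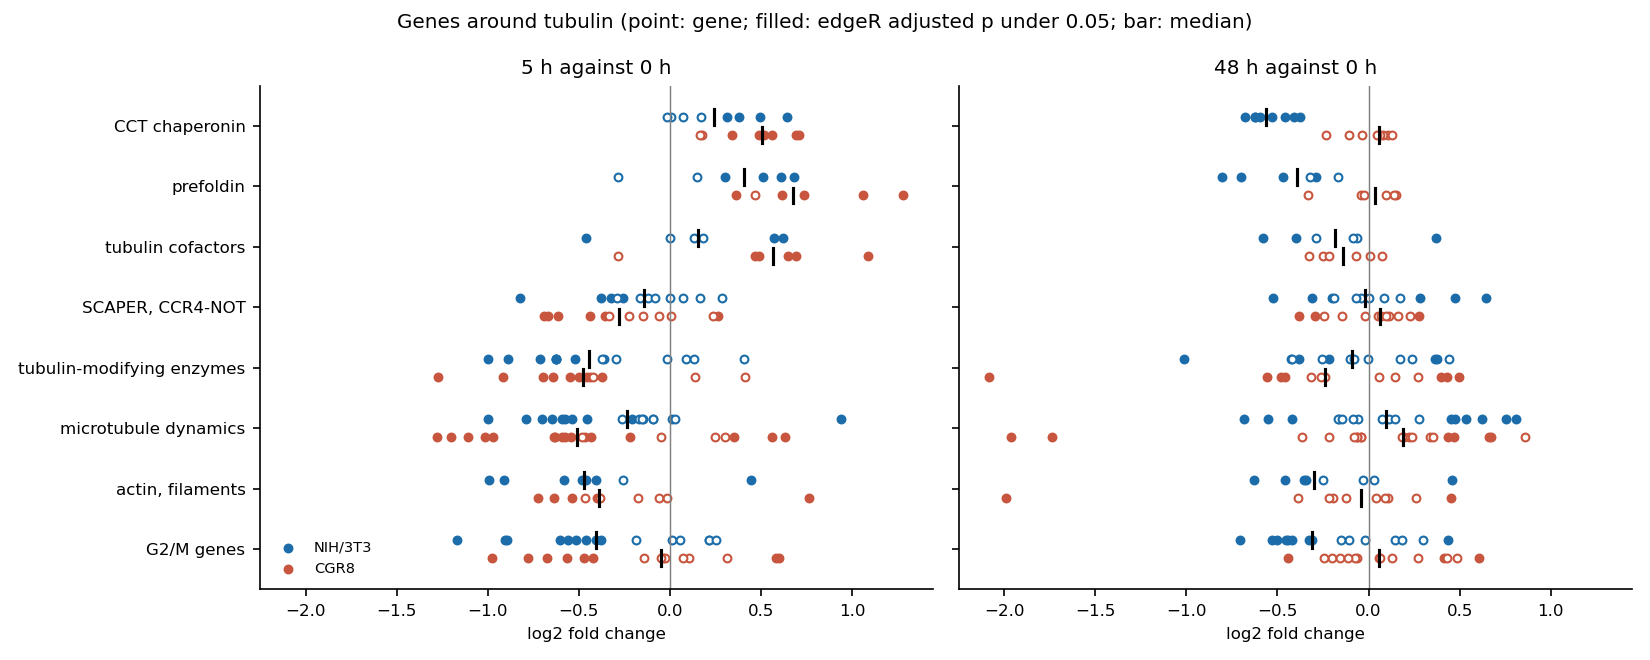
Log2 fold change at 5 h and 48 h against 0 h of each tested gene of 8 lists, NIH/3T3 in blue and CGR8 in red, filled where the edgeR adjusted p is under 0.05, with a bar at the median of the list. CCT and prefoldin medians are above 0 at 5 h in both lines and below 0 at 48 h in NIH/3T3.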

How the data were processed

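Total RNA from 30 cell line samples was sequenced as stranded mRNA libraries, per the labels' protocols. The authors deposited 1 table of raw read counts per gene, 100% whole numbers, with 1 column per library. STAR, DESeq2 and build GRCm39 are named in the submitters' processing notes; the counting program, its use of strand and the annotation release are not given in the sources used here. Symbols came from a gene name table, which matched 90.7% of 57186 identifiers. Coding starts and exon lengths came from GENCODE M21 (GRCm38), so no coordinates are given.

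Each line was fitted with edgeR 4.0.16 (R 4.3.3): filterByExpr (minimum count 10, minimum total count 15), TMM factors, 1 coefficient per time, quasi-likelihood F test, Benjamini-Hochberg adjustment over all genes tested, calls at an adjusted p under 0.05. Interactions and the 0 h line difference used all 30 libraries. CPM are on TMM-scaled library sizes from all libraries; CPM per kb divides by the union of exons. Library deviations used genes of at least 20 CPM with 0.5 added before log2. The scripts were tested on simulated counts. DESeq2 1.42.0 and limma 3.58.1 served as alternatives, beside other scalings, filters, left-out libraries and a replicate block.

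The members and lists were chosen with earlier results of these data known. Named genes are the 10 members, Scaper and Cnot11, in each list and line up to 3 called genes with the largest change at 5 h and at least 10 CPM, and the 3 genes most like Tuba1b, Tubb5 and Ttc5; members under 10 CPM in a line are given as CPM or counts. Replicate letters did not pair the libraries: deviations of same-lettered libraries correlated above 0.1 in 14 of 24 pairs, and in all 3 pairs for 1 of 8 comparisons. No replicates were duplicates, since replicate counts differed beyond sampling noise (chi-square over degrees of freedom 1.75 or more).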

Additional observations from a re-analysis of the deposited data

Results flagged for a closer look

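At 5 h, the change of Tubb4b differed between the lines by a log2 value of 0.68 ± 0.22 (edgeR adjusted p = 0.0430), as CGR8 minus NIH/3T3, and that of Ttc5 by 0.54 ± 0.18 (edgeR adjusted p = 0.0461). Tubb4b was -0.33 in NIH/3T3 and 0.26 in CGR8, neither past the threshold, while Ttc5 was 0.19 and 0.64. At 48 h the change of Tubb2a differed by -0.61 ± 0.19 (edgeR adjusted p = 0.0218), with -0.50 in NIH/3T3 and -1.09 in CGR8. All 3 were singled out because the test of the difference itself passed. Leaving out single libraries ended the Tubb4b call in 10 of 12 fits, the Ttc5 call in 11 of 12 and the Tubb2a call in 4 of 12, and the direction held in each.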

How the results depend on the processing

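Without the 4 deviating libraries, an alternative added after seeing the data, the members past the threshold were 3 at 1 h, 5 at 2 h, and 8 each at 5 h, at 48 h and at 48 h against 5 h in NIH/3T3, where 14.7, 54, 64.2, 66.8 and 74.5% of all genes passed. The interactions at 5 and 48 h gave 8 and 6, where 25.8 and 29.5% did. The Tubb4b change in NIH/3T3 at 1 h then turned to -0.18. With limma-voom quality weights, also added later, the counts were 2, 6, 8, 8 and 8 in the same NIH/3T3 order (20.7, 56.1, 67.5, 69.9 and 79.1% of all genes), 2 for CGR8 at 48 h (44.3%), and 8 and 6 for the interactions (36.3 and 43.4%). With only the groups compared, NIH/3T3 gave 1 at 2 h (33.2% of all genes) and 8 at 5 h, 48 h and 48 h against 5 h (65.8, 68.3 and 80.1%), and the 48 h interaction 3 (32.2%). DESeq2's size factors in edgeR gave 1 at 2 h in NIH/3T3. The 5 h interaction gave 0 under those factors, library size alone, DESeq2 and a filter at 5 CPM, and 1 with no filter; the 48 h interaction gave 3 with no filter. Leaving out 1 library at a time gave 0 to 3 members at 2 h and 2 to 4 at 5 h in NIH/3T3, 0 to 2 in CGR8 at 2 h, and 0 to 3 and 0 to 2 for the interactions at 5 and 48 h. The cause of these shifts was not tested. With the replicate block the 5 h interaction count fell from 2 to 0, with edgeR adjusted p of 0.05 for Tubb4b and 0.0503 for Ttc5, and no other call changed; the letters pair the libraries in all 3 pairs only for NIH/3T3 at 1 h. Depth limits Tubb2b and Tubb3 in NIH/3T3, with at most 26 and 1 counts per library.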
